A study of Mus musculus with 7 samples.

Results

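Fos binding was examined around 10 marker genes of the oligodendrocyte lineage, Mbp, Mog, Mag, Mobp, Cnp, Olig1, Olig2, Sox10, Pdgfra and Cspg4, out of 21883 protein-coding genes in the mouse gene table. The genes were chosen by name as known markers, and every Fos peak whose summit lay inside a gene or within 50 kb of either end was taken. Fos is a subunit of the transcription factor AP-1. Its binding was measured by chromatin immunoprecipitation and sequencing (ChIP-seq) with a monoclonal anti-Fos antibody in whole hippocampus. All mice were wild-type C57BL/6J aged 2 months. The 3 saline libraries came from mice given PBS. The 3 kainic acid libraries came from mice given kainic acid, a glutamate receptor agonist that provokes seizures, as 2 intraperitoneal injections of 10 mg/kg placed 30 min apart. These mice reached seizures of level 4 and were killed 1 hour after the first injection. An input library was also made from saline chromatin and is not analysed here. The labels do not give the number of mice behind a library, so differences between libraries may be biological or technical.

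Oligodendrocytes wrap axons in myelin and arise from progenitor cells that persist in the adult brain. Progenitors carry the receptor Pdgfra and the proteoglycan Cspg4 on their surface, the factors Olig1, Olig2 and Sox10 set and keep the lineage, and maturing cells switch on the proteins of myelin. Fos dimerises with Jun proteins and binds the AP-1 motif, mostly in enhancers, and neurons make it within minutes of strong activity. Hippocampal tissue mixes neurons, oligodendrocytes, astrocytes and other cells. The peak lists hold no expression values, so which cells held the bound chromatin was not measured.

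The kainic acid lists held 15009 to 63197 peaks and the saline lists 7, 3277 and 2. No read totals come with the lists. A peak absent from a list was not called there, which does not make the site unbound. Solving each peak's deposited fold and −log10 p together gave the number of reads over its summit, which ran from 10 to 55 reads over the kainic acid peaks near the 10 genes. A peak's fold is the authors' own ratio of the summit to a background. The library that gave this background is not stated in the sources used here. Folds are printed as deposited and are not scaled to each other, so lists are compared through the rank of a fold in its own list, written as a percentile in which 0 is the highest fold and 100 the lowest.

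Near the 10 genes, kainic acid replicates 1, 2 and 3 had 6, 70 and 33 peaks, and saline replicates 1, 2 and 3 had 0, 6 and 0. The windows cover 1225 kb once the overlap of the neighbours Olig1 and Olig2 is counted once. This gave 0.490, 5.71 and 2.69 peaks per 100 kb with kainic acid, a mean of 2.97 ± 2.62 (SD, n = 3). Saline gave 0, 0.490 and 0, a mean of 0.163 ± 0.283 (SD, n = 3). Kainic acid replicate 1 and saline replicate 2 had the same number of peaks, so the groups met, and the difference of 2.80 was about as large as the spread within the kainic acid group. As a share of its own list, saline replicate 2 placed 0.183% of its peaks in these windows, against 0.0400%, 0.111% and 0.111% for the kainic acid replicates. No p-value is given over the genes together.

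The order of the kainic acid libraries was that of their list lengths, 15009, 63197 and 29650 peaks in replicates 1, 2 and 3. When each kainic acid list was cut to its 15009 peaks of highest −log10 q, replicates 1, 2 and 3 had 0.490, 1.14 and 0.735 peaks per 100 kb near the 10 genes. Windows of all protein-coding genes then held 0.738, 0.762 and 0.750. With whole lists those windows held 0.738, 3.24 and 1.49. The equal-length values rest on 6, 14 and 9 peaks near the 10 genes, against 12449, 12846 and 12643 near all genes. Counts as small as those near the 10 genes scatter more, so their spread between libraries cannot be set against that of all genes. What set the spread was not tested.

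**Figure D1:**
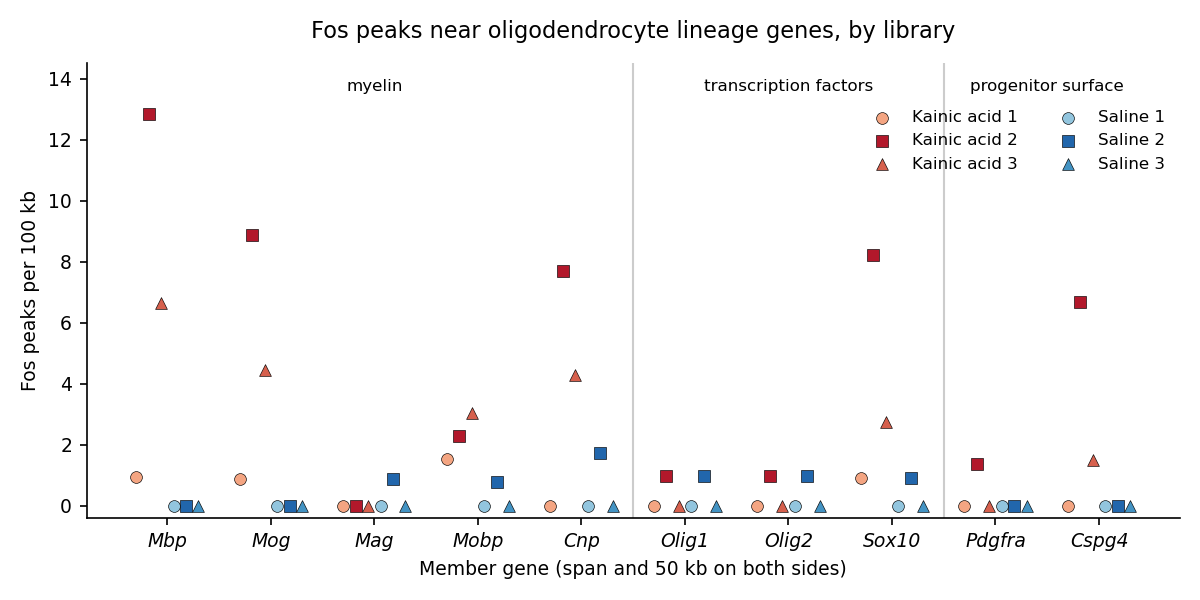
Fos peaks per 100 kb (vertical axis) in the span of each gene and 50 kb on both sides (horizontal axis), 1 point per library, with genes grouped by role. Kainic acid replicate 2 is highest at most genes, Mbp reaches 12.8 there, and Mag has no kainic acid peak.

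Peaks of different lists that overlapped by at least 1 bp were merged, and a stretch is called a region where 2 or 3 of the kainic acid lists share it. The 75 merged stretches with a kainic acid peak comprised 28 regions, of which 5 were in all 3 lists, and 47 stretches in a single list. Of the 47, 42 came from replicate 2 and 5 from replicate 3. Of the 23 regions in exactly 2 lists, 22 paired replicates 2 and 3 and 1 paired replicates 1 and 2. The regions in all 3 lists were 17.9% of the 28 (95% Clopper-Pearson interval 6.06 to 36.9, counting error only), against 44.4% of all 26862 kainic acid regions. With the lists cut to equal length the share was 40%, or 4 of 10 regions (interval 12.2 to 73.8), against 59.2% of all 13226 regions, which lies within that interval. None of the 75 stretches held a saline peak. The saline lists held only 7, 3277 and 2 peaks in all, which left little room for such an overlap. The share over all kainic acid stretches was not taken. The number of regions rested on the longer lists, falling to 5 when kainic acid replicate 2 was left out and to 6 when replicate 3 was. With a list left out, a region had to be in both remaining lists, here and for the single genes below. All kainic acid regions also fell, from 26862 to 12176 without replicate 2 and to 13526 without replicate 3.

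A region lay within 50 kb of 6 of the 10 genes, where 62.6% of all protein-coding genes had one. Regions in all 3 lists lay near 3 of the 10 genes, Mbp, Mobp and Sox10, where 42.3% of all protein-coding genes had one. Every kainic acid list had more peaks than every saline list at 3 of the 10 genes, Mbp, Mog and Mobp, against 33.4% of all protein-coding genes. Each kainic acid list had a peak near 4 of the 10 genes, the same 3 and Sox10, against 44.7% of all, and a region lay inside 2 of them, Mbp and Mog, against 27.4%. Each of these shares is near or below that of genes in general. By role, 4 of the 5 myelin genes had a region, as did 1 of the 3 transcription factor genes and 1 of the 2 progenitor surface genes.

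Mbp had the most Fos peaks of the 10. It encodes myelin basic protein, which holds the cytoplasmic faces of the myelin membrane together, and the same gene makes longer golli transcripts that are also found in neurons and immune cells. The gene spans chromosome 18, 82475091 to 82585637 (GRCm38, 110.5 kb). Its window had 2, 27 and 14 peaks in kainic acid replicates 1, 2 and 3 and 0 in each saline list, or 0.950, 12.8 and 6.65 peaks per 100 kb with kainic acid. The groups did not overlap, with a mean difference of 6.81 peaks per 100 kb, and p was 0.1 in a two-sided exact permutation test. That is the lowest value 3 libraries against 3 can reach, so the test cannot call any gene and no p-value adjusted over genes is given. Counts were not scaled for list length, and saline replicates 1 and 3 held 7 and 2 peaks in all. A count of 0 in those lists was nearly fixed in advance at any gene. On the saline side, whether groups overlapped thus hung on saline replicate 2 alone, here and at the genes below.

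Of the 12 regions near Mbp, 11 lay inside the gene, in a stretch of 58.8 kb that began 17.0 kb from the lower end of the span. Neighbouring regions there were 0.934 to 20.5 kb apart, with a median of 3.19 kb. This is 9.95 regions per 100 kb of gene, and 2.10% of the 13959 protein-coding genes of 10 kb or more had a higher density inside their span. The gene table gives neither exons nor the starts of single transcripts of this gene, so the regions cannot be assigned to introns or to one of its promoters.

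Both regions in all 3 lists lay side by side near the middle of the gene. The first (82522159 to 82523200) reached folds of 6.08, 10.5 and 5.36 in replicates 1, 2 and 3, from 32, 53 and 40 reads over the summit. Its percentile ranks were 15.1, 4.67 and 20.4. The second, at 82524438 to 82525111, had a fold of 5.04, 11.1 and 5.76, from 20, 40 and 28 reads, and ranks of 30.8, 3.90 and 16.1. These 2 were the only Mbp peaks of replicate 1, and no list ranked either below a percentile of 30.8.

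The remaining Mbp regions were in replicates 2 and 3 only. The region outside the gene, at 82602782 to 82603543, lay 17.5 kb past the upper end, inside the zinc finger gene Zfp236, with a fold of 9.36 and 5.24 and a mean rank of 14.3. At the other end of the scale was 82545045 to 82545533, with a fold of 3.24 and 2.96 and a mean rank of 89.6. The count at Mbp depended on both longer lists, since 2 regions were left without replicate 2 and 2 without replicate 3. With lists of equal length 6 regions were left, and replicates 1, 2 and 3 had 2, 7 and 6 peaks, or 0.950, 3.32 and 2.85 per 100 kb, where the windows of all protein-coding genes held 0.738 to 0.762. The other 9 genes together held 0.394, 0.690 and 0.296 at that length.

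**Figure D2:**
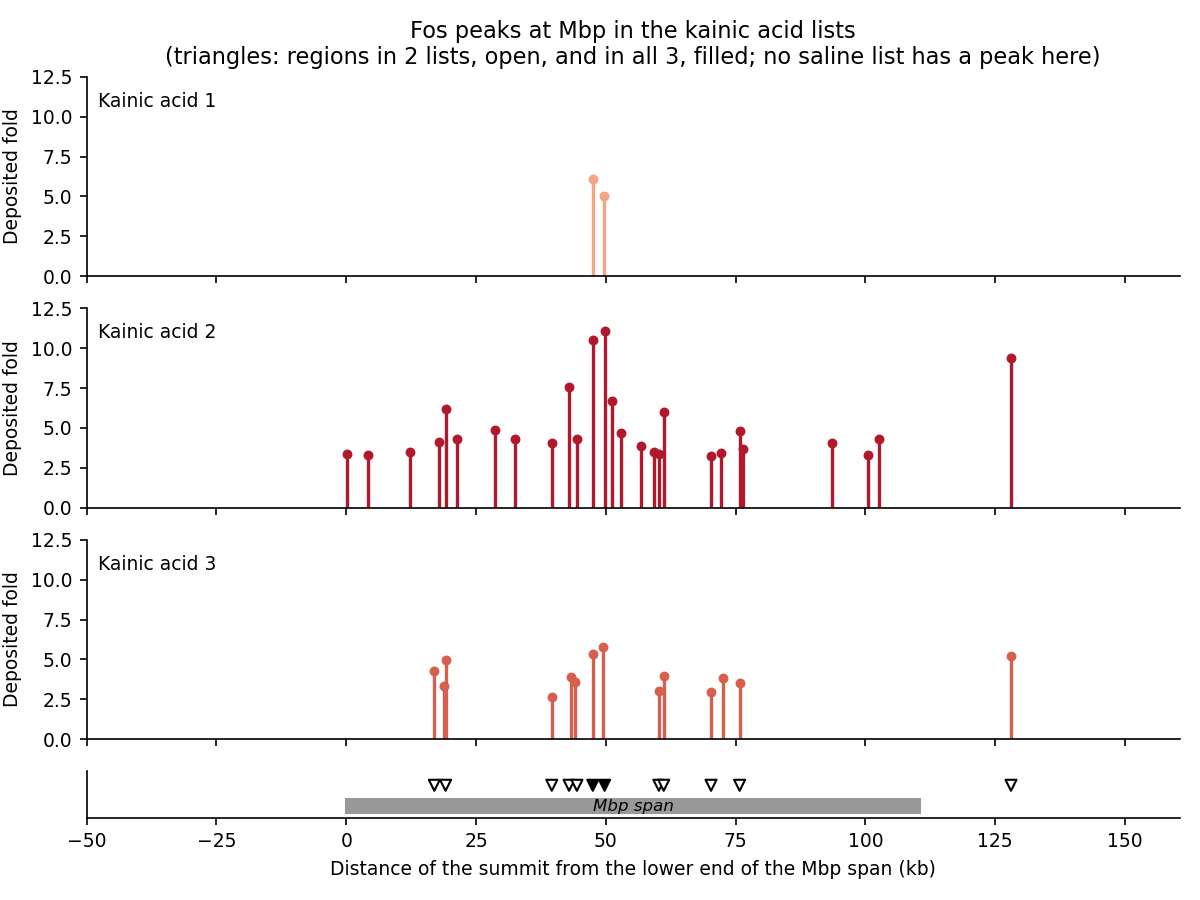
Deposited fold of each Mbp peak (vertical axis) against the distance of its summit from the lower end of the gene span in kb (horizontal axis), 1 panel per kainic acid replicate. Regions crowd between 17.0 and 75.8 kb, and the 2 regions shared by all 3 lists stand near 50 kb with the highest folds inside the gene in replicates 2 and 3.

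Mog encodes a glycoprotein on the outer surface of myelin (chromosome 17, 37010740 to 37023398, minus strand). It had 1, 10 and 5 peaks in kainic acid replicates 1, 2 and 3 and none in any saline list, so its groups did not overlap (exact permutation p = 0.1). Of its 5 regions, 1 lay inside the gene, at 37018096 to 37018757, with a fold of 3.69 and 3.26 in replicates 2 and 3 and a mean rank of 78.0. A second lay on the low side near 2410137M14Rik. The other 3 lay in or 929 bp from Gabbr1, which encodes a GABA-B receptor subunit, and the best ranked of all 5 was inside it, at 37070172 to 37070544 (folds 6.26 and 4.21, mean rank 31.4). The only peak of replicate 1 in this window was in the region 929 bp from Gabbr1, which lay 21.6 kb from Mog. Near Mog, 0 regions were left without replicate 2 and 1 without replicate 3.

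Mobp, which encodes a basic protein of compact myelin, gave the most even counts (chromosome 9, 120149742 to 120181488, plus strand). It had 2, 3 and 4 peaks with kainic acid and 0, 1 and 0 with saline, and the groups did not overlap (exact permutation p = 0.1). All 3 of its regions lay outside the gene. That at 120127020 to 120127500 was in all 3 lists, 22.4 kb upstream and 403 bp from Rpsa, a ribosomal protein gene, with a fold of 4.13, 5.29 and 3.96. The region at 120191608 to 120192586, 10.5 kb past the end of the gene, was also in all 3 lists, with a fold of 3.79, 6.40 and 3.65 from 15, 23 and 20 reads. Best ranked was 120140726 to 120141363, in replicates 2 and 3, with a fold of 7.36 and 4.90 and a mean rank of 20.7. Its best summit lay 8.87 kb upstream of Mobp and 8507 bp from Rpsa, the nearer of these genes. Near Mobp, 2 regions were left without replicate 2 and 2 without replicate 3. The single saline peak lay at the start of Slc25a38, 39.3 kb away, where no kainic acid peak was called.

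Cnp encodes a cyclic nucleotide phosphodiesterase of non-compact myelin (chromosome 11, 100574909 to 100591875, plus strand). It had 0, 9 and 5 peaks with kainic acid and 0, 2 and 0 with saline, so the groups overlapped (exact permutation p = 0.4). All 4 regions fell in the neighbouring genes, 2 in Ttc25 upstream and 2 in Dnajc7, a co-chaperone gene, downstream. The best ranked, at 100569726 to 100570134, lay 5.01 kb before the gene with a fold of 4.86 and 4.17 in replicates 2 and 3 (mean rank 42.0). Without replicate 2 or without replicate 3, no region near Cnp was left.

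Among the 7 members with an entry in the RefSeq promoter table, Cnp was the only one whose promoter window was touched by a peak. The peak, at 100574880 to 100575145, was called in kainic acid replicate 2 alone, with a fold of 3.71 and 25 reads. The 250 bases before the RefSeq transcript start (GRCm38.p6, chr11:100574689-100574938, plus strand) are shown because they hold this contact. Capitals mark the 59 bases under the peak, which are 86.4% G or C against 48.2% in the rest of the stretch. They are the lower edge of the peak only, since its summit, at 100575043, lies past the end of the stretch.
Cnp: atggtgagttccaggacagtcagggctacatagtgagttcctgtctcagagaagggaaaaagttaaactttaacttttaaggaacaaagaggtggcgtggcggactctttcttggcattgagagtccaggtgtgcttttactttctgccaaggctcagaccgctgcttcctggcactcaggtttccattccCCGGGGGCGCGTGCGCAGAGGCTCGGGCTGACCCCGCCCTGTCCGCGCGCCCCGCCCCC

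Mag, which encodes an adhesion protein on the myelin face next to the axon, had no kainic acid peak at all (chromosome 7, 30899175 to 30914922, minus strand). Its counts were 0, 0 and 0 with kainic acid and 0, 1 and 0 with saline. That saline peak, at 30957158 to 30957573, lay 380 bp from Usf2. The nearest region to Mag was 86.6 kb away.

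The genes of the paired factors Olig1 and Olig2 lie side by side on chromosome 16 (91269769 to 91271939 and 91225550 to 91228677), and their windows share their peaks. Each had 0, 1 and 0 peaks with kainic acid and 0, 1 and 0 with saline, so no difference was seen. The kainic acid peak, at 91234827 to 91235165, lay 6.33 kb from Olig2 with a fold of 4.59 and a rank of 45.5 in replicate 2. The saline peak, at 91270812 to 91271055, lay inside Olig1 itself with a fold of 5.07 and 22 reads, and it was the only saline peak within any of the 10 gene spans. The nearest regions were 126 kb from Olig1 and 169 kb from Olig2.

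Sox10, a factor required for myelin gene expression, had 1, 9 and 3 peaks with kainic acid and 0, 1 and 0 with saline (chromosome 15, 79154913 to 79164490). Kainic acid replicate 1 and saline replicate 2 had the same count, so the groups met (exact permutation p = 0.2). None of its peaks lay inside the gene. Its window did hold the best ranked of all 28 regions, at 79107578 to 79108586, with a fold of 5.39, 13.7 and 9.13 in replicates 1, 2 and 3 from 24, 55 and 50 reads. Percentile ranks were 24.3, 1.79 and 2.73. This site is 46.8 kb from Sox10 and 431 bp from Micall1, which encodes an endosomal protein. A region nearer to Sox10 than to any other protein-coding gene lay 12.6 kb past the upper end, at 79176846 to 79177268, with a fold of 7.83 and 3.44 in replicates 2 and 3. Without replicate 2, as without replicate 3, only the site by Micall1 was left.

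Both progenitor genes had no peak in kainic acid replicate 1, and most of their peaks came from replicate 2. Pdgfra, the receptor for platelet-derived growth factor A (chromosome 5, 75151322 to 75198206), had 0, 2 and 0 peaks with kainic acid and none with saline. Both peaks of replicate 2 lay past the upper end, 1.65 and 9.89 kb away, and the nearest region was 107 kb away. Cspg4, which is also made by pericytes (chromosome 9, 56865104 to 56899870), had 0, 9 and 2 peaks with kainic acid and none with saline (exact permutation p = 0.4). Its single region, at 56846689 to 56847236, lay 18.2 kb upstream with a fold of 4.29 and 3.07 (mean rank 71.1). Inside Cspg4, the peak of highest rank was at 56872938 to 56873689, with a fold of 7.56 in replicate 2 and no counterpart in the other lists.

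**Figure D3:**
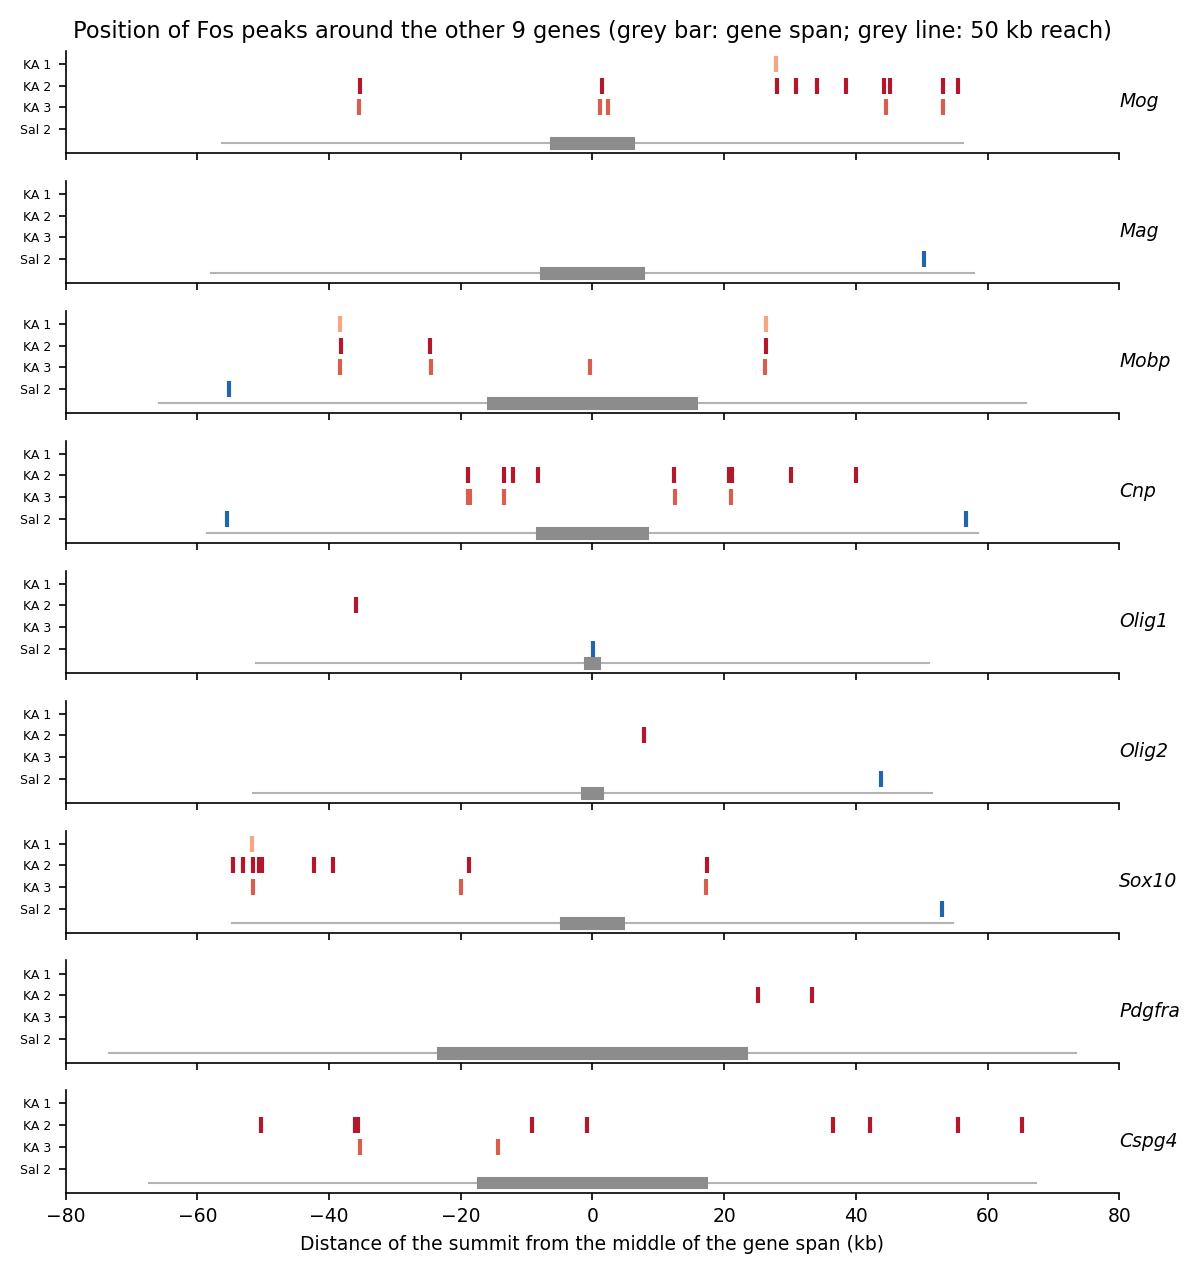
Summits of Fos peaks (ticks) by distance from the middle of each gene span in kb (horizontal axis) for the 9 genes other than Mbp, with rows for kainic acid replicates 1 to 3 (KA) and saline replicate 2 (Sal), the only saline list with peaks here. Ticks lie mostly outside the grey gene bars, and the Mag panel holds a saline tick alone.

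Myelin genes were compared with the progenitor surface genes within each kainic acid library. Windows of the 5 myelin genes held 0.727, 7.13 and 4.07 peaks per 100 kb in replicates 1, 2 and 3, and those of Pdgfra and Cspg4 held 0, 3.91 and 0.710. Pooled over genes, the myelin windows were higher in 3 of 3 libraries, by a mean of 2.44 ± 1.48 (SD, n = 3). No p-value is given for this difference. Single myelin genes differed. In replicate 2, Mbp (12.8), Mog (8.88) and Cnp (7.69) exceeded Cspg4 (6.68), while Mobp (2.28) and Mag (0) did not. Mag had no peak in any kainic acid list. Apart from those in Mbp, the only region inside a myelin gene was in Mog. The windows of Olig1, Olig2 and Sox10 held 0.391, 3.91 and 1.17. With lists of equal length the mean difference was 0.878 ± 0.247, and without Mbp it was 1.19 ± 0.900, again higher in 3 of 3 libraries each (SD, n = 3). It was 1.55 for peaks with −log10 q from 5 upward and 0.733 for those from 10 upward.

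Across the 28 regions, 12 lay inside a member gene, 7 inside another protein-coding gene and 9 outside protein-coding genes. Of the 16 regions outside the members, 2 had a member as the nearest protein-coding gene, namely Mobp and Sox10, and 27 other protein-coding genes reach into the windows. No region began within 1 kb outside a member's end. Inside any protein-coding gene lay 67.9% of the 28 regions, against 75.3% of all regions within 50 kb of a protein-coding gene. At the edge of the 50 kb reach, the last region counted lay 49.8 kb from Sox10 (mean rank 77.2) and the first left out lay 51.7 kb from Mog (mean rank 55.7).

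Folds of the 28 regions took percentile ranks from 15.1 to 73.1 in replicate 1, 1.79 to 97.2 in replicate 2 and 2.73 to 99.7 in replicate 3. The median of the mean percentile ranks was 51.4, with an SD of 9.93 between the medians of the 3 lists, against 42.2 for all kainic acid regions. By list the medians were 44.8 of 6 regions in replicate 1, 35.0 of 28 in replicate 2 and 54.8 of 27 in replicate 3, where all regions had 47.2, 24.3 and 44.8. The order against all regions turned with the libraries used. Without replicate 2 the median of the 5 regions left was 23.4, against 37.6 for all, and without replicate 3 that of the 6 left was 31.4, against 33.7. With lists of equal length it was 62.0, against 46.9. A mean rank under 25 was reached by 6 of the 28 regions and one under 10 by 1, against 24.6% and 7.72% of all regions. Folds in replicate 2 ran from 2.75 to 13.7, with a median of 5.09, while the highest fold of that list was 82.6. Best summits of a region lay 0 to 888 bp apart between lists, with a median of 104 bp.

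**Figure D4:**
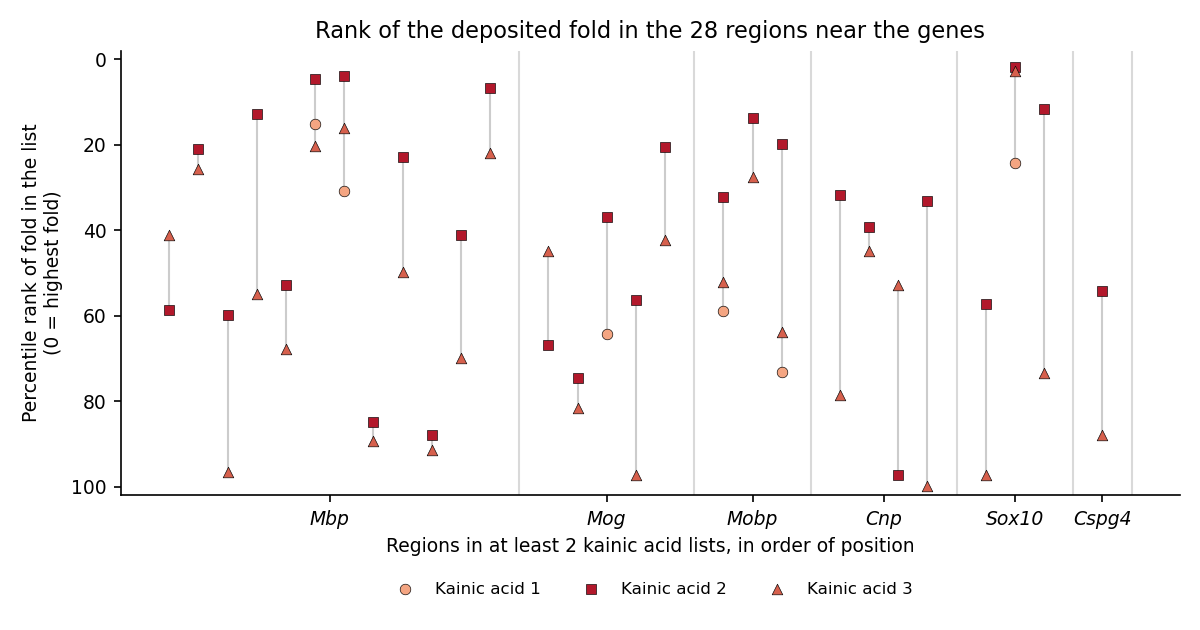
Percentile rank of the deposited fold in its list (vertical axis, 0 at the top is the highest fold) for each of the 28 regions, in order of position and grouped by gene; lines join the lists of a region. The site in the Sox10 window that lies 431 bp from Micall1 is at 1.79 and 2.73 in replicates 2 and 3. The other regions spread from 3.90 to 99.7.

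Set among all protein-coding genes, the 10 differed widely in density. Mbp had 5.70 regions per 100 kb of window, and 2.21% of genes had more. Next were Mog with 4.44 (5.19% had more), Cnp with 3.42 (10.6%), Sox10 with 2.74 (16.2%) and Mobp with 2.28 (21.1%). Cspg4 had 0.742, and Mag, Olig1, Olig2 and Pdgfra had none. The median was 1.51 for the 10, 0.742 for the members without Mbp and 0.869 for all genes.

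**Figure D5:**
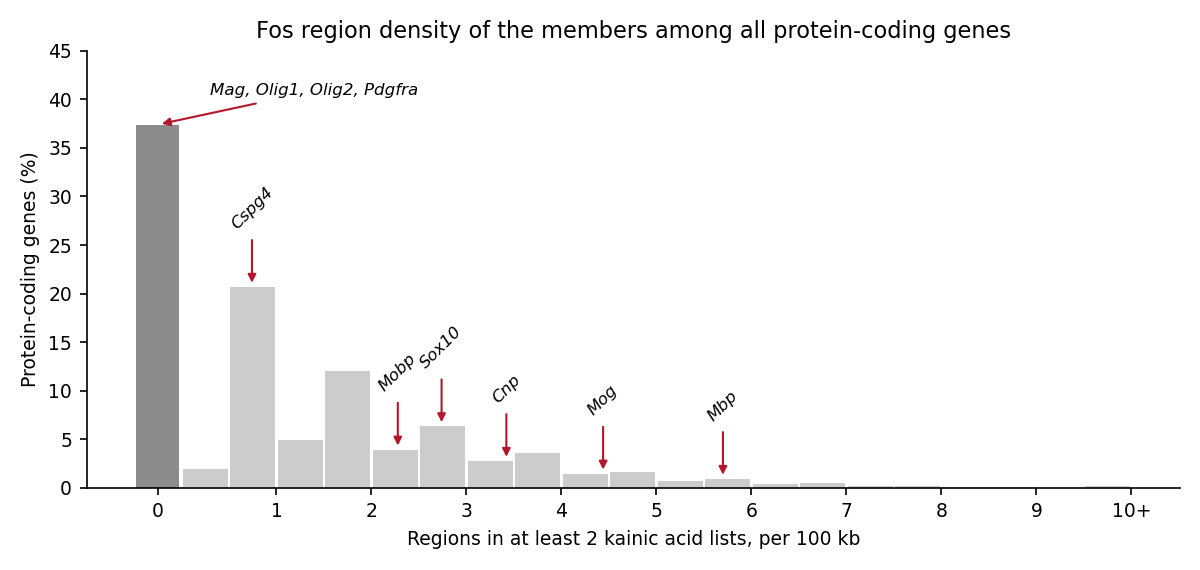
Share of all protein-coding genes in percent (vertical axis) by number of regions per 100 kb of their window (horizontal axis); the dark bar, set apart on the left, is genes with no region, and arrows mark the 10 genes. Mag, Olig1, Olig2 and Pdgfra fall in the dark bar of 37.4%, and Mbp lies in the upper tail at 5.70.

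Markers of other cell types were counted in the same way. All 10 of 10 neuronal genes had a region, as did 7 of 10 astrocyte genes and 9 of 10 microglial genes, against 6 of the 10 oligodendrocyte lineage genes and 62.6% of all protein-coding genes. A region in all 3 lists lay near 9 neuronal, 5 astrocyte and 7 microglial genes, against 3 lineage markers and 42.3% of all protein-coding genes. Such regions were 37.5%, 50% and 47.4% of the neuronal, astrocyte and microglial regions, against 17.9% of those near the lineage markers. The windows differ in size, at 2528 kb for the neuronal genes together, 1330 kb for astrocyte, 1106 kb for microglial and 1225 kb for the lineage markers, and a longer gene has more room for a region. Median densities were 3.01, 0.908, 1.30 and 1.51 regions per 100 kb, in that order, and 0.742 for the lineage markers without Mbp. In peaks per 100 kb, windows of the lineage markers were sparser than those of the neuronal genes in 3 of 3 kainic acid libraries, with differences of -1.80, -4.02 and -2.33. Astrocyte and microglial windows were denser in replicate 1 and sparser in replicates 2 and 3. On average the lineage markers exceeded the astrocyte genes by 1.24 ± 1.37 and the microglial genes by 0.826 ± 1.12 (SD, n = 3), and without Mbp by 0.439 ± 0.685 and 0.0285 ± 0.431, each less than its SD. These differences were not tested and were not taken with lists of equal length. Saline replicate 2 had peaks near 6 of the 10 lineage markers, 5 neuronal, 3 astrocyte and 4 microglial genes, against 30.2% of all protein-coding genes. Among the lineage markers, Olig1 and Olig2 were both counted through the same saline peak.

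A wider list of 32 other genes of the lineage gave shares close to those of all genes. A region lay near 20 of the 32 (62.5%, against 62.6% of all genes), and one in all 3 lists near 14 (43.8%, against 42.3%). Their median was 0.678 regions per 100 kb. Opalin, a membrane protein of mature oligodendrocytes, had the highest density at 6.08, with 7 regions, none inside the gene. It was followed by Ermn (3.71), an actin-binding protein of the myelin sheath, Gpr37 (3.29), an orphan receptor, and Qk (2.82), an RNA-binding protein needed for myelin. Gpr37 and Qk held 3 and 6 regions inside the gene. No region lay near 12 genes, among them Ugt8a, Aspa, Fa2h, Gjb1, Gjc3, Gpr17, Nkx2-2, Nkx6-2, Tspan2, Vcan and Zfp488. Of these, Aspa, Fa2h, Gjc3 and Ugt8a had no peak in any of the 6 lists.

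Promoter sequences were available for 7 of the 10 genes, with 9 RefSeq transcript starts. Each window ran from 250 bases before to 50 after the start. The AP-1 motif TGANTCA, which reads the same on both strands, matched in 0 of these 9 windows and in 7.81% of all 32851 promoter windows. The cyclic AMP response element TGACGTCA, also the same on both strands, matched in 0 of 9 and in 1.79% of all. With only 9 windows, some of which overlap at Mag, 0 matches cannot be told apart from either share. Neither motif was searched in the regions themselves, because no genome sequence was used here.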

How the data were processed

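Fos ChIP-seq of 6 hippocampal libraries was analysed from the peak list of each library. Per the submitters' processing notes, the tools were Trim Galore 0.6.4, Bowtie2 2.3.4.3, MACS2 and deepTools 3.5.0 with build mm10, which is GRCm38. The control library and the cutoff are not given in the sources used here, and peak names carry a mapping quality of 30. The deposited columns are a score, a fold ratio, −log10 p, −log10 q and a summit; whether the authors scaled libraries to each other is not given in the sources used here.

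From these, summits within 50 kb of RefSeq GRCm38.p6 gene spans were counted, overlapping peaks were merged, and folds were ranked within lists. Reads over a summit were solved from fold = (reads + 1)/(background + 1) and the Poisson p, an inferred model that fitted all 115 of 115 peaks within 0.001. Merging, counting and solving were tested on simulated data. Single genes were compared by two-sided exact permutation tests over 20 assignments. The 10 genes, the other gene lists and the named sites, given by best mean rank for each gene, were chosen with earlier results of these data known, so tests over the genes together, though planned, are not printed. Some genes of the wider lineage list are not reported here by name. Python 3.11.15, pandas 2.3.3, scipy 1.17.1 and matplotlib 3.10.9 were used.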

Additional observations from a re-analysis of the deposited data

How the results depend on the processing

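Of 178 alternative values, 0 reversed and 63 moved, which for a count means by over 1.5 times, for a share outside its interval and for a median rank by over 1 SD. Differences in peaks per 100 kb are not among the 63 whatever their size, since they were judged by direction and by a test that cannot reach a p under 0.1 with 3 libraries against 3. The difference in peaks per 100 kb was 2.80 with the replicate block, which pairs libraries of the same number. The labels tie no number to a shared day or animal, and 2 saline lists have no peak here to compare. Leaving out 1 library gave 1.43 to 4.04, lists of equal length gave 0.626, −log10 q from 10 upward gave 0.707 and gene spans alone gave 5.63.

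The number of regions was 28. It was 14 for peaks with −log10 q from 5 upward and 5 for those from 10 upward, 15 at a reach of 10 kb, 12 inside gene spans, 10 with lists of equal length, 5 when all 3 lists were required and 16 for the members other than Mbp, an alternative chosen after seeing the data. Leaving out 1 kainic acid library, with both remaining lists required, gave 5 to 27. Genes with a region went from 6 to 3 with −log10 q from 10 upward, to 2 inside gene spans and to 3 when all 3 lists were required, and leaving out 1 kainic acid library gave 3 to 6. With lists of equal length the share in all 3 lists was 40% and the median rank 62.0. Leaving out 1 kainic acid library gave median ranks of 23.4 to 49.9. The cause was not tested. Counts at single genes moved in 46 of 110 cases, 43 of them to fewer. For Mag, Olig1, Olig2 and Pdgfra, 43 of 44 counts were 0, the exception being Mag at a reach of 100 kb with 1 region. The share in all 3 lists has no value with a library left out, and the AP-1 motif share of regions was not run because it needs a genome sequence.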
